A study of Mus musculus with 6 samples.

Results

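Heat shock protein and DNAJ chaperone genes were followed in the right hippocampus of mice 3 weeks after bilateral carotid artery stenosis (BCAS), an operation that lowers blood flow to the brain. Members were defined by symbol: Hspa or Hspb with a number, the Hsp90 genes, Hspd1, Hspe1, Hsph1, and Dnaja, Dnajb or Dnajc with a number. This rule and the gene lists used below were set with earlier results of these data known. Symbols with a letter after the number, such as Hspa1b, were kept, and pseudogenes were left out. This gave 72 of the 54752 genes counted. They fall into 11 HSP70 genes, 3 HSP110 genes, 3 HSP90 genes, 2 genes of the mitochondrial chaperonin HSP60/HSP10, 8 small HSP genes, and 4 DNAJA, 13 DNAJB and 28 DNAJC genes.

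RNA-seq was done on 3 sham and 3 BCAS mice, all male wild-type C57BL/6 (C57BL/6 J in the study's methods), with an age of 14 weeks in the labels. BCAS mice carried a metal microcoil around each common carotid artery, the narrower one on the right, and sham mice had the operation without coils. The entire right hippocampus was used, so every value is an average over neurons, glia, vessels and any attached tissue. The libraries held 29652456 to 35607098 counts. Levels are given as CPM (counts scaled to a common library size) after TMM scaling, in the order of mouse 1, 2 and 3. A library in which a gene had 0 counts allows up to 3 counts, or 0.0875 to 0.0995 CPM, and this limit covers counting error only.

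HSP70 proteins bind and release unfolded chains in a cycle driven by ATP. J proteins (the DNAJA, DNAJB and DNAJC families) bring clients to HSP70 and start ATP hydrolysis, while HSP110 proteins and BAG proteins exchange its nucleotide. HSP90 takes over late folding steps of kinases and receptors, chaperonins enclose single chains, and small HSPs hold unfolded proteins without ATP. Separate sets work in the cytosol, the endoplasmic reticulum (ER) and mitochondria. In the cytosol, heat shock factors induce chaperones through the heat shock element, while ER chaperones are induced in the unfolded protein response, in part through the ER stress element.

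Both elements were looked for in the sequences around the transcription start, because members of the cytosol and of the ER are known to be induced through them. RefSeq windows (build GRCm38.p6) from 250 bases before to 50 bases after a start were matched for 58 of the 72 members. The heat shock element was searched as 3 blocks of GAA and TTC in turn, each 2 bases apart, on either strand. Blocks had to match exactly, so an element with a changed base was not found. It was present in 4 members (6.90%) and in 0.662% of 27025 genes. The 4 members were Dnajb6, Hspd1, Hspe1 and Hsph1. In Hsph1 it lay after the start and is not shown. The elements before the start are in capitals, read 5′ to 3′ on the strand of the gene.
Dnajb6, chr5:29735844-29735872, plus strand: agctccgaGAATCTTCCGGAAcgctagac
Hspd1, chr1:55088053-55088082, minus strand: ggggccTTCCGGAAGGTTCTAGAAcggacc
Hspe1, chr1:55088053-55088082, plus strand: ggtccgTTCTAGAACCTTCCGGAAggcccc

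Hspd1 and Hspe1 are read outward from a common stretch, so their element is a single one seen on opposite strands. It was counted for both genes. The capitals there cover 2 overlapping matches. It lay 144 to 127 bases before the start of Hspd1 and 89 to 72 bases before that of Hspe1. The shorter form GAANNTTC occurred in 14 members (24.1%) against 9.04% of all genes, and TTCNNGAA in 6 (10.3%) against 9.60%. Hspa1a, Hspa1b and Hspb1 held GAANNTTC without a full element as searched. Both short forms overlap the full element where that is present. A match is a description of letters and no evidence of binding.

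The ER stress element was searched as CCAAT and CCACG with 9 bases between them, on either strand. It was present in 3 members (5.17%) and in 0.137% of all genes. All 3 encode proteins of the ER lumen: Dnajc3, a J protein that serves the ER HSP70, Hspa5 (BiP), which is that HSP70, and Hsp90b1 (GRP94), the ER HSP90. Hsp90b1 held the element at 2 places, the second on the opposite strand. The element is in capitals.
Dnajc3, chr14:118937822-118937850, plus strand: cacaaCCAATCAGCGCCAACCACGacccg
Hspa5, chr2:34772020-34772048, plus strand: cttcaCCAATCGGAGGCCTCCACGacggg
Hsp90b1, chr10:86705633-86705661, minus strand: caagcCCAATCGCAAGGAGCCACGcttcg
Hsp90b1, chr10:86705528-86705556, minus strand: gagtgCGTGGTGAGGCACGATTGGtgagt

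Between BCAS and sham mice, the members that changed in the cytosol and in mitochondria were mostly lower in BCAS mice, each by less than a log2FC of 1, while some small HSPs were higher. Among 13 ER members, 2 were higher and 1 was lower, neither above the share of all genes. Of the 64 members with enough counts to test, 19 were lower (29.7%) and 6 were higher (9.38%) at an adjusted P under 0.05 (edgeR). Over all 18617 genes tested, 13.2% were lower and 18.0% higher. Together, 25 members were called (39.1%), against 31.3% of all genes. The 39 other members were not called, which does not show that they stayed the same. The median log2 fold change (log2FC, BCAS over sham) of the tested members was −0.18, with quartiles of −0.33 and −0.01, and that of all tested genes was 0.018. All 3 BCAS mice were below all 3 sham mice in 29 members (45.3%; 22.7% of all genes) and above them in 11 (17.2%; 25.3% of all genes).

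DEGs were genes called in the test whose log2FC was above 1 or below −1. By this rule 4 members were up-regulated (6.25%), against 8.47% of all tested genes. These were Hspb6, Hspb3, Hspb8 and Dnajb13. No member was a down-regulated DEG by edgeR, against 0.999% of all genes. At an unadjusted P under 0.05, 26 members were lower, of which 0 had a log2FC below −1, and DESeq2 also gave 0 down-regulated DEGs. The number of calls depended on single mice: without sham mouse 1, 2 or 3, 9, 11 and 8 members were lower. Without BCAS mouse 1 or 3, 13 members each were lower, while without BCAS mouse 2, 23 were lower and 8 higher. Without sham mouse 3, 3 members were higher, and 1 was a DEG. Scaling by library totals in place of TMM, which moved the median of all genes to 0.09, gave 13 lower and 9 higher members. No called member turned its direction, but this shift was smaller than any called log2FC, so none could turn. In the 4 libraries with high choroid plexus markers, a comparison chosen after seeing the data, 16 members were lower, 5 were higher and 3 were up-regulated DEGs. The shares of all genes in these settings are not given, so these counts cannot be set against the shares above.

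**Figure D1:**
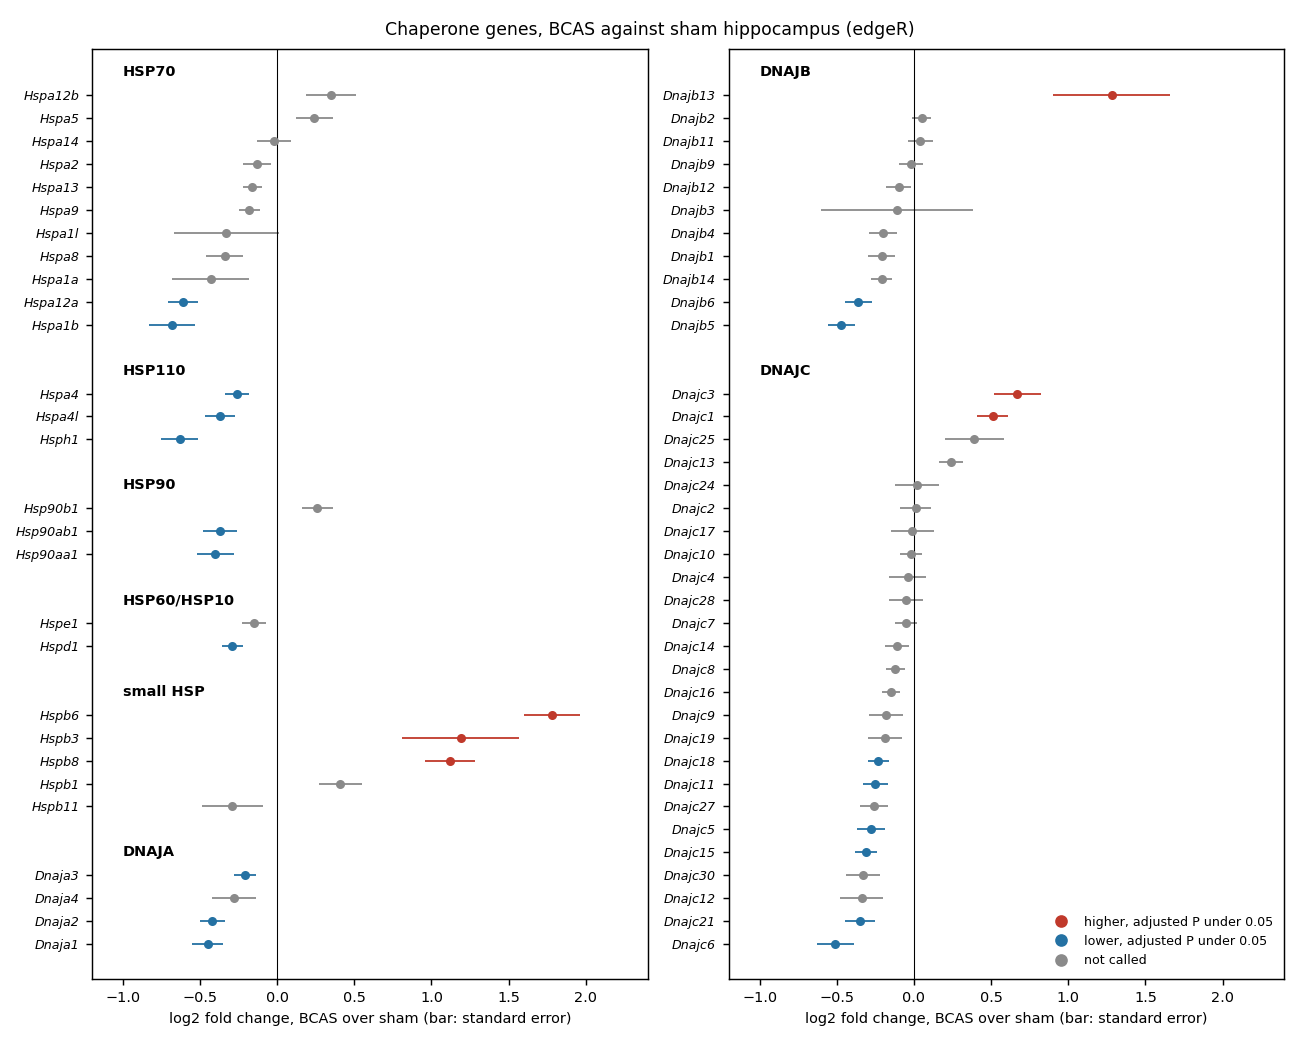
The plot shows the log2 fold change of BCAS over sham mice for each of the 64 tested members by class, with the standard error as a bar and the call of the edgeR test as colour. All 3 HSP110 genes and 3 of the 4 DNAJA genes are called lower (against 13.2% of all genes), and Hspb6 has the highest value, at 1.78.

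Markers of several cell types differed between the groups. Neuron markers were lower in BCAS mice for 5 of 6 genes, with a summed level of 8657 to 8955 CPM in sham mice and 4599 to 6601 CPM in BCAS mice. Microglia markers were higher for 9 of 9 genes (316 to 329 against 1923 to 3117 CPM) and astrocyte markers for 5 of 6 (2127 to 2254 against 6326 to 6737 CPM). In bulk tissue, fewer cells of a type and less RNA per cell cannot be told apart. Choroid plexus markers, from a tissue next to the hippocampus, varied from 43.7 to 3889 CPM in sham mice and from 28.5 to 5643 CPM in BCAS mice. They were low in sham mouse 3 and BCAS mouse 2. The part of these cell types in the chaperone results was not tested, except where a value is given.

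The summed level of all members was 9612, 9388 and 9649 CPM in sham mice and 8044, 8319.5 and 7274 CPM in BCAS mice. It fell from 9549.9 ± 141 to 7879 ± 542 CPM (SD, n = 3 mice each), a change of −17.5%, and the groups did not overlap. Members took 0.765% to 0.838% of all counts in the BCAS libraries, against 0.914% to 0.945% in the sham libraries. Such sums carry no test and weigh abundant genes the most. Per kilobase of exon, Hsp90ab1 had the highest level in sham mice, at 482 ± 13.4 CPM per kb, followed by Hspa8 (339 ± 9.10) and Hsp90aa1 (289 ± 10.2; SD, n = 3). The next member, Dnaja2, had 82.3 ± 2.59 CPM per kb. The first 3 kept their order in BCAS mice, with 372 ± 33.4, 267 ± 26.9 and 218 ± 27.8 CPM per kb. In BCAS mice they were followed by Hspa9 (67.1 ± 0.816), Hspa5 (61.9 ± 8.15) and Dnaja2 (61.4 ± 3.95). Of these, Hspa5 did not differ from either of the other 2 beyond its spread.

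By class, the summed level in BCAS mice was below that in sham mice in every library for 7 of the 8 classes. The HSP110 sum went from 789 ± 44.3 to 587 ± 58.3 CPM (−25.6%; SD, n = 3) and the DNAJA sum from 677 ± 15.3 to 511 ± 44.6 CPM (−24.4%), and their order turned without sham mouse 1. HSP90 went from 2741 ± 71.7 to 2169 ± 202 CPM (−20.9%) and HSP70 from 2389 ± 38.9 to 1971 ± 127 CPM (−17.5%). The DNAJC sum went from 1888 ± 5.76 to 1681 ± 81.6 CPM (−11.0%). Small HSPs went the other way, from 37.5 ± 3.52 to 73.2 ± 7.89 CPM. All 7 falling sums and the neuron marker sum were lowest in BCAS mouse 3.

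**Figure D2:**
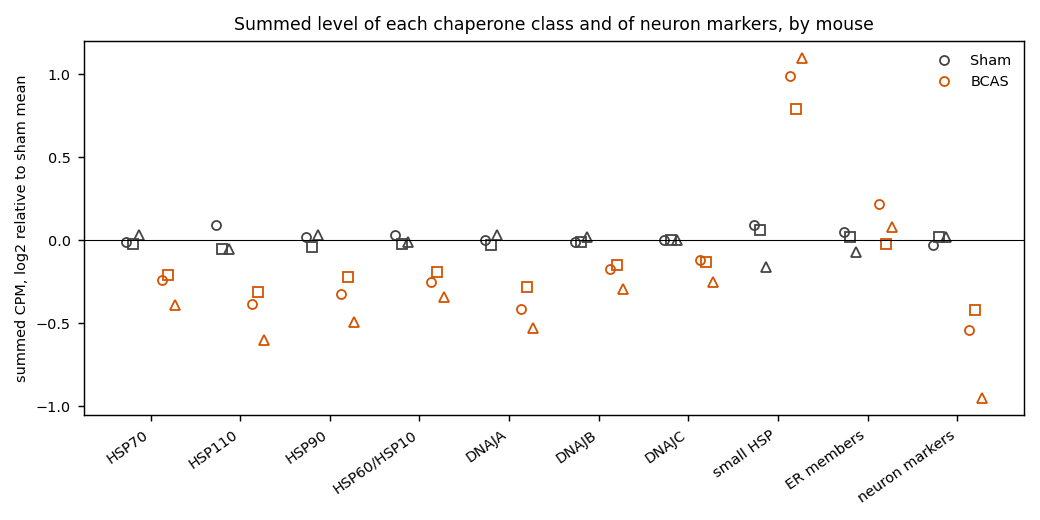
The plot shows the summed CPM of each chaperone class, of the 13 ER members and of the neuron markers in each mouse, as log2 relative to the mean of the sham mice (circle, square and triangle for mouse 1, 2 and 3). Small HSPs lie between 0.79 and 1.10 in BCAS mice, the neuron markers between −0.95 and −0.42, and the ER members overlap with the sham mice.

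Of the 8 small HSP genes, 5 could be tested. Of these, 3 were higher (against 18.0% of all genes) and 0 lower by edgeR, nor was any lower at an unadjusted P under 0.05 or by DESeq2. Hspb6 (HSP20; chr7:30552178-30555443), known from smooth, heart and skeletal muscle, had 3.84, 5.69 and 4.20 CPM in sham mice and 14.5, 14.6 and 18.2 CPM in BCAS mice. Every BCAS mouse was far above the highest sham mouse. Its log2FC of 1.78 ± 0.18 (SE; adjusted P = 0.00017, edgeR) was the highest among all tested members. Hspb6 kept its call under each of the 16 alternatives tried, with a log2FC of 1.66 to 1.97.

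Hspb8 (HSP22; chr5:116408491-116422864) works with Bag3 to send misfolded proteins to autophagy. It had 20.6, 20.4 and 15.0 CPM in sham mice and 41.7, 34.0 and 45.9 CPM in BCAS mice. The groups lay apart, and the log2FC was 1.12 ± 0.16 (SE; adjusted P = 0.000976, edgeR), with a call under all 16 alternatives. Its partner Bag3 rose as well, from 12.5, 10.1 and 11.5 to 20.3, 17.4 and 19.7 CPM (log2FC 0.76 ± 0.12, adjusted P = 0.00232). Cryab (αB-crystallin), a close relative of the small HSPs outside the symbol rule, had 88.4, 78.4 and 79.9 CPM in sham mice and 109, 98.2 and 113 CPM in BCAS mice (log2FC 0.38 ± 0.08, adjusted P = 0.00927).

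Hspb3, a muscle small HSP that pairs with Hspb2, had low counts, 15 to 52 per library. It had 0.708, 0.449 and 0.496 CPM in sham mice and 0.893, 1.72 and 1.19 CPM in BCAS mice. The log2FC was 1.19 ± 0.38 (SE; adjusted P = 0.0436, edgeR), and the call was lost under DESeq2, under limma-voom and on leaving out any of sham mice 1, 2 and 3 or BCAS mice 2 and 3, with adjusted P values of 0.0339 to 0.234 over all alternatives. Hspb1 (HSP27), which is also made by reactive astrocytes, had 8.20, 6.97 and 8.80 CPM in sham mice and 11.6, 9.45 and 10.8 CPM in BCAS mice. These groups lay apart, but Hspb1 did not pass the test (log2FC 0.41 ± 0.14, adjusted P = 0.0595), except with library totals or without BCAS mouse 2 (adjusted P = 0.0391). Of its 150-base windows, 39.1% also occur in other genes, the pseudogene Hsp25-ps1 among them, so that reads from these are not counted. Hspb11, an intraflagellar transport protein, had a log2FC of −0.29 (adjusted P = 0.302).

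Beside the rise of Hspb6 and Hspb8, astrocyte and microglia markers rose together in all 3 BCAS mice, as given above. Of the smooth muscle and pericyte markers, 1 of 6 was higher, and their sum of 215 to 264 CPM in sham mice overlapped with 249 to 269 CPM in BCAS mice. Fibroblast markers were higher for 3 of 4 genes, with overlapping sums of 76.8 to 159 and 158 to 269.5 CPM. In the 4 libraries with high choroid plexus markers, Hspb6 had a log2FC of 1.76 (adjusted P = 0.0053), Hspb8 of 1.08 (adjusted P = 0.00239) and Hspb3 of 0.83 (adjusted P = 0.234), which was then not called.

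**Figure D3:**
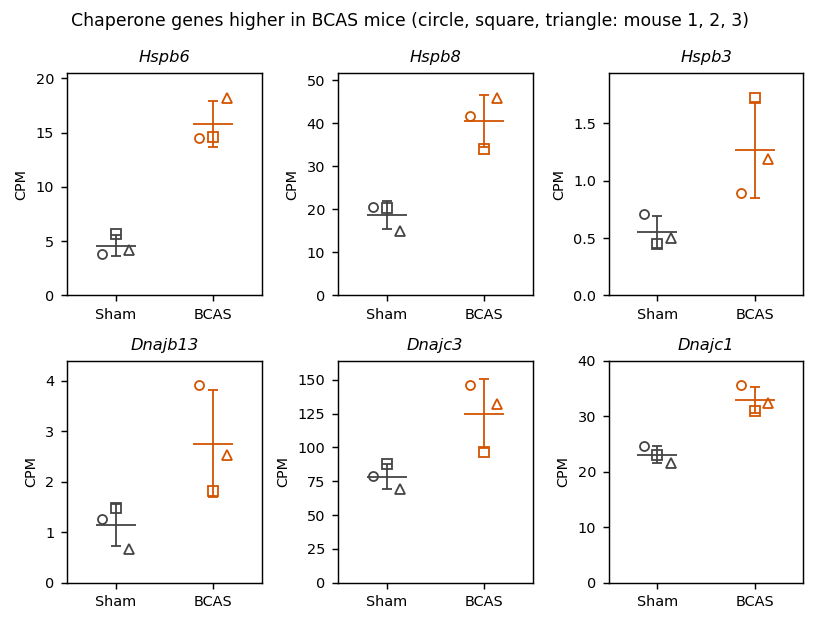
The plot shows the CPM of the 6 members called higher in BCAS mice, with a symbol for each mouse and the mean and SD of each group, on axes from 0. Hspb6 and Hspb8 lie far apart between the groups, while BCAS mouse 2 lies close to the highest sham mouse in Dnajb13 and Dnajc3.

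Of 13 members placed in the ER, 2 were higher, 1 was lower and 10 were not called. Neither count is above the shares of all genes (18.0% higher, 13.2% lower). Across the 13 members, the summed level of 1121 ± 48.0 CPM in sham mice overlapped with 1199 ± 98.5 CPM in BCAS mice (SD, n = 3). Dnajc3 (P58IPK; chr14:118937976-118981697), the lumenal J protein whose start carries an ER stress element, had 79.0, 87.5 and 69.1 CPM in sham mice and 146, 96.5 and 132 CPM in BCAS mice. All BCAS mice were above all sham mice, BCAS mouse 2 by the least. The log2FC was 0.67 ± 0.15 (SE; adjusted P = 0.0102, edgeR), and the adjusted P was 0.0508 without sham mouse 3. Dnajc1 (chr2:18195654-18392830), a J protein of the ER membrane that binds ribosomes, had 24.6, 23.1 and 21.6 CPM in sham mice and 35.6, 30.9 and 32.4 CPM in BCAS mice. Its log2FC of 0.51 ± 0.10 (SE; adjusted P = 0.00487) was called under all 16 alternatives.

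The ER members that carry the same element did not pass the test. Hspa5 had 239, 229 and 195 CPM in sham mice and 299, 230.4 and 256 CPM in BCAS mice, which overlapped (log2FC 0.24 ± 0.12, adjusted P = 0.145, edgeR). Hsp90b1 had 173, 166 and 147 CPM in sham mice and 218, 176 and 189 CPM in BCAS mice (log2FC 0.26 ± 0.10, adjusted P = 0.0791), and it was called only with library totals and without BCAS mouse 2. Dnajb9 (ERdj4), a strongly stress-induced J protein, was at 46.7 to 53.7 CPM in sham mice and 46.4 to 50.4 CPM in BCAS mice (log2FC −0.02 ± 0.08, adjusted P = 0.865). Dnajb11 (ERdj3) and Dnajc10 (ERdj5), further cofactors of Hspa5 in the lumen, had log2FC values of 0.04 and −0.02 (adjusted P = 0.762 and 0.891). Dnajc18, an ER membrane J protein, was the single lower member, at −0.23 (adjusted P = 0.0377).

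Within each group, Dnajc3 had the same order of mice as the choroid plexus markers, while Hspa5 and Hsp90b1 had that order among BCAS mice only. In each group, the mouse with the fewest choroid plexus counts (sham mouse 3, BCAS mouse 2) had the lowest Dnajc3, Hspa5 and Hsp90b1 of its group. With the choroid plexus level as a covariate, added after seeing the data, the log2FC of Dnajc3 was 0.58 (adjusted P = 0.000422, edgeR), that of Hspa5 0.19 (adjusted P = 0.129) and that of Hsp90b1 0.22 (adjusted P = 0.0716). In the 4 libraries with high choroid plexus markers these values were 0.73 (adjusted P = 0.00454), 0.23 (0.148) and 0.25 (0.105). These 4 libraries do not hold the marker level equal, with sums of 913 and 3889 CPM in sham mice and 5643 and 3049 CPM in BCAS mice.

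**Figure D4:**
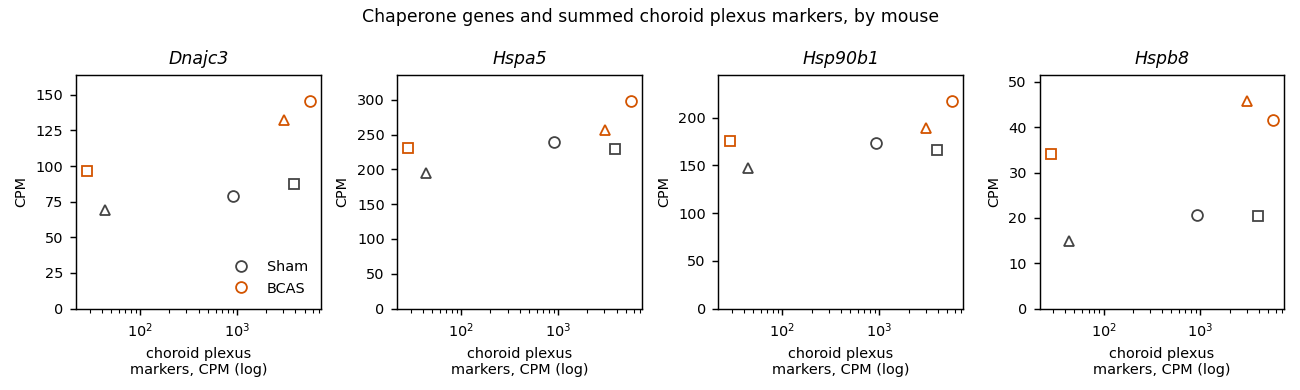
The plot shows the CPM of Dnajc3, Hspa5, Hsp90b1 and Hspb8 against the summed CPM of choroid plexus markers (log axis) in each mouse, with symbols for mouse 1, 2 and 3. At similar marker levels, BCAS mice lie above sham mice in each gene, in Hspa5 and Hsp90b1 by a smaller share of their level.

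Dnajb13, a J protein of the radial spokes of motile cilia, was the remaining member that rose. It had 1.27, 1.47 and 0.671 CPM in sham mice and 3.91, 1.82 and 2.53 CPM in BCAS mice. The log2FC was 1.28 ± 0.38 (SE; adjusted P = 0.0332, edgeR), and the call was lost without sham mouse 1 or 3 or BCAS mouse 1 or 3 (adjusted P = 0.06 to 0.113). Within each group, Dnajb13 had the same order of mice as the choroid plexus markers. Its log2FC was 1.11 with their level as a covariate (adjusted P = 0.0149) and 1.22 in the 4 libraries in which they were high (adjusted P = 0.0417). Of its exonic bases, 11.16% overlap with Ucp2, which rose from 25.6, 38.0 and 21.9 to 117, 120.3 and 169 CPM. Reads on the shared bases were not counted, and strand was not used in counting. Among ependymal markers, which mark ciliated cells of the ventricle wall, Foxj1 was higher (13.8, 18.0 and 9.77 against 32.6, 15.5 and 33.5 CPM, log2FC 0.97, adjusted P = 0.0387) and 4 of 5 were not called.

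Of the 11 HSP70 genes, 2 were lower and 9 were not called by edgeR, a share of lower genes close to the 13.2% over all genes. Hspa8 (HSC70), the constitutive HSP70 that also strips clathrin from vesicles, had 1435, 1432 and 1501 CPM in sham mice and 1141, 1266 and 1035 CPM in BCAS mice. The groups lay apart, but the adjusted P was 0.0519 (log2FC −0.34 ± 0.12, edgeR), and it was called under 8 of the 16 alternatives, DESeq2 and limma-voom among them. The stress-inducible Hspa1b (chr17:34956436-34959238) had 10.9, 12.5 and 12.8 CPM in sham mice and 7.85, 8.52 and 6.22 CPM in BCAS mice. Its log2FC of −0.68 ± 0.15 (SE; adjusted P = 0.0104) was the lowest of all tested members and was called under all 16 alternatives. Its near-identical neighbour Hspa1a had 4.81, 5.51 and 7.67 CPM in sham mice and 3.51, 5.87 and 3.94 CPM in BCAS mice, which overlapped (log2FC −0.43 ± 0.25, adjusted P = 0.225). Since 40.5% of the 150-base windows of Hspa1b and 46.0% of those of Hspa1a also occur elsewhere, and such reads were not counted, the split between this pair is uncertain.

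Relative to Hspa8, the inducible pair was scarce in both groups. Per length, Hspa1a and Hspa1b together had 0.0186 of the level of Hspa8 in sham mice and 0.0156 in BCAS mice, with log2 ratios of −5.75 ± 0.16 and −6.01 ± 0.11 (SD, n = 3) that overlapped. Hspa12a (chr19:58795751-58860984), a distant and brain-rich HSP70 relative, had 310.5, 296 and 316 CPM in sham mice and 218, 210.2 and 175 CPM in BCAS mice. It had a log2FC of −0.61 ± 0.10 (SE; adjusted P = 0.00187, edgeR), and its call held under all 16 alternatives. Its endothelial relative Hspa12b had a log2FC of 0.35 (adjusted P = 0.128), while 3 of 5 endothelial markers were higher.

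All 3 HSP110 genes, the exchange factors of cytosolic HSP70, were lower (against 13.2% of all genes). Hsph1 (HSP105; chr5:149614287-149636376) had 342, 298 and 294 CPM in sham mice and 219, 218 and 165 CPM in BCAS mice. This was the largest fall among them, with a log2FC of −0.63 ± 0.12 (SE; adjusted P = 0.00497, edgeR) and a call under all 16 alternatives. Hspa4l had 214, 195 and 212 CPM in sham mice and 151, 182 and 147 CPM in BCAS mice (log2FC −0.37 ± 0.10, adjusted P = 0.0194), and its call was lost without sham mouse 1 or 3 or BCAS mouse 1 (adjusted P = 0.063 to 0.073). Hspa4 had a log2FC of −0.26 ± 0.08 (adjusted P = 0.0408). Among other exchange factors and cofactors of HSP70, Bag4 (log2FC −0.51, adjusted P = 0.00294), Bag5 (−0.43, adjusted P = 0.00617) and Stub1 (CHIP, a ubiquitin ligase; −0.33, adjusted P = 0.0181) were lower. The Stub1 call was lost without sham mouse 2 or 3 (adjusted P = 0.0646 and 0.0766) and in the 4 libraries with high choroid plexus markers (0.0617). Among the 13 such genes listed, 3 were lower and Bag3 alone was higher, beside 13.2% lower and 18.0% higher over all genes.

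Both cytosolic HSP90 genes were lower (against 13.2% of all genes), and the ER form was not called. Hsp90aa1, the inducible form, had 1155, 1088 and 1160.1 CPM in sham mice and 841, 974 and 757 CPM in BCAS mice (log2FC −0.40 ± 0.12, adjusted P = 0.0316, edgeR). Hsp90ab1, the constitutive form, had 1443, 1405 and 1485 CPM in sham mice and 1135, 1207 and 1009 CPM in BCAS mice (log2FC −0.37 ± 0.11, adjusted P = 0.036). In both genes all BCAS mice were below all sham mice, but both calls were lost on leaving out any of the sham mice or BCAS mouse 1, with adjusted P values of 0.0744 to 0.101 and 0.0841 to 0.105. Per length, the log2 ratio of Hsp90aa1 to Hsp90ab1 overlapped between the groups, at −0.74 ± 0.025 for sham and −0.78 ± 0.066 for BCAS mice. That of Hsp90b1 to Hsp90ab1 went from −3.59 ± 0.15 to −2.95 ± 0.22 (SD, n = 3), with all BCAS mice above. Of 19 genes listed as HSP90 co-chaperones, among them Trap1, which is the mitochondrial HSP90 itself, 8 were lower and 0 higher by edgeR (against 13.2% and 18.0% of all genes), with 0 higher also at an unadjusted P under 0.05 and by DESeq2. The lower ones were led by Tomm70a and Tomm34, which take part in bringing precursor proteins to mitochondria (log2FC −0.54 each, adjusted P = 0.00236 and 0.00467), and Stip1 (HOP), which links HSP70 to HSP90, was also lower (−0.42, adjusted P = 0.0177; 0.0703 and 0.0575 without sham mouse 1 or 3).

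Of the J proteins in the DNAJA and DNAJB families, 5 were lower and 1, Dnajb13, was higher (against 13.2% and 18.0% of all genes). Dnaja1 had 335, 322 and 342 CPM in sham mice and 236, 278 and 219 CPM in BCAS mice (log2FC −0.45 ± 0.10, adjusted P = 0.00965, edgeR). Dnaja2, of the same family, had 239, 242 and 254 CPM in sham mice and 185, 193 and 170.0 CPM in BCAS mice (log2FC −0.42 ± 0.08, adjusted P = 0.00396). Both are general cofactors of Hspa8, and both were called under all 16 alternatives. Dnajb5 had 129, 125 and 129 CPM in sham mice and 94.5, 101 and 80.8 CPM in BCAS mice (log2FC −0.47 ± 0.09, adjusted P = 0.00432), again under all 16. Dnajb6, which keeps polyglutamine proteins from aggregating, had a log2FC of −0.36 ± 0.09 (adjusted P = 0.0134). Dnajb1 (HSP40), the classical heat-induced J protein, had 44.9, 49.2 and 50.4 CPM in sham mice and 39.8, 46.5 and 38.7 CPM in BCAS mice, which overlapped (log2FC −0.21 ± 0.09, adjusted P = 0.126), and was called only without BCAS mouse 2 (adjusted P = 0.0275).

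Among 4 members that act on clathrin coats and vesicles, 2 further J proteins were lower (against 13.2% of all genes). Dnajc6 (auxilin; chr4:101496648-101642799), the neuronal J protein that recruits Hspa8 to clathrin coats, had 336, 335 and 354 CPM in sham mice and 245, 280.1 and 195 CPM in BCAS mice. BCAS mouse 3 was the lowest, and the log2FC was −0.51 ± 0.12 (SE; adjusted P = 0.0145, edgeR; 0.0581 without sham mouse 3). Dnajc5 (cysteine string protein), on synaptic vesicles, had 386, 393 and 390.2 CPM in sham mice and 332, 346 and 283 CPM in BCAS mice (log2FC −0.28 ± 0.09, adjusted P = 0.0466), and its call was lost in 9 of the 16 alternatives. Dnajc13, which acts on endosomes, had a log2FC of 0.24 (adjusted P = 0.0509). The neuron markers Snap25 and Syt1, of the same nerve endings, had log2FC values of −0.70 and −0.56 (adjusted P = 0.0112 and 0.0302).

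**Figure D5:**
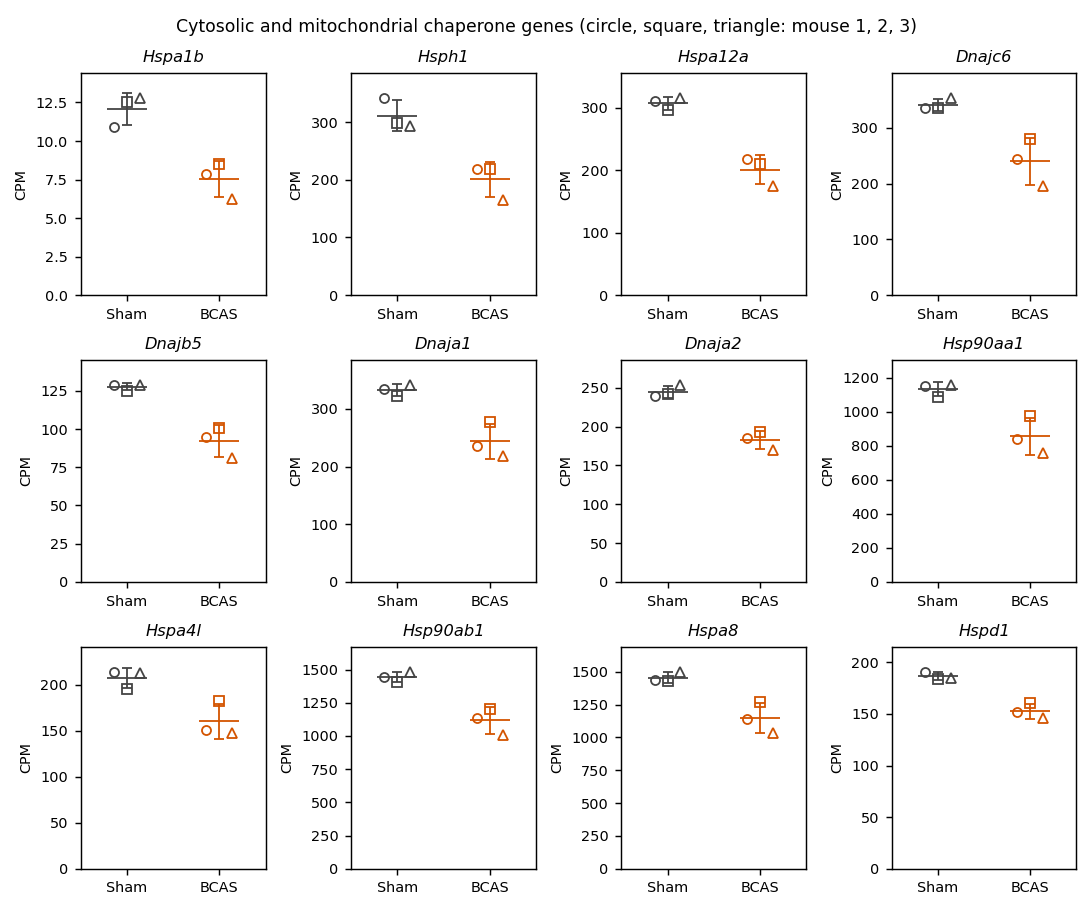
The plot shows the CPM of 12 cytosolic and mitochondrial members, with a symbol for each mouse and the mean and SD of each group, on axes from 0. In every panel all BCAS mice lie below all sham mice, and BCAS mouse 3 (triangle) is the lowest.

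All 10 mitochondrial members had a fitted log2FC below 0, and 4 were called lower (against 13.2% of all genes). The summed level went from 723 ± 12.6 to 619 ± 16.9 CPM (SD, n = 3; −14.4%) without overlap. Hspd1 (HSP60), the barrel of the chaperonin, had 191, 184 and 185 CPM in sham mice and 152, 160.4 and 146 CPM in BCAS mice (log2FC −0.29 ± 0.07, adjusted P = 0.014, edgeR; 0.0557 and 0.0548 without sham mouse 1 or 2). Its lid Hspe1 (HSP10), which shares the heat shock element shown above, had 51.6, 49.2 and 51.4 CPM in sham mice and 47.5, 47.4 and 41.9 CPM in BCAS mice, apart but not called (log2FC −0.15 ± 0.08, adjusted P = 0.173). Hspa9 (mortalin), the mitochondrial HSP70, had 224, 225 and 240.0 CPM in sham mice and 201, 205 and 205 CPM in BCAS mice (log2FC −0.18 ± 0.07, adjusted P = 0.0848). The other lower members were Dnajc15 of the protein import motor (−0.31, adjusted P = 0.00795), Dnajc11 of the inner membrane organizing system (−0.25, adjusted P = 0.0354) and Dnaja3, a cofactor of Hspa9 (−0.21, adjusted P = 0.0414). Transcripts of the mitochondrial genome made up 6.02% to 6.56% of the counts of BCAS mice, against 6.90% to 6.99% for sham mice. The last called member, Dnajc21, a J protein of ribosome assembly, had a log2FC of −0.35 (adjusted P = 0.0297).

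In each of the 19 lower members the lowest library was BCAS mouse 3, which was also the mouse with the lowest sum of neuron markers and the highest sum of microglia markers. BCAS mouse 3 was also the lowest library in 81.8% of all 2463 genes called lower. Among the 6 higher members, the highest library was BCAS mouse 1 in 3, mouse 2 in 1 and mouse 3 in 2.

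A further set held 12 members of the textbook heat shock response (Hspa1a, Hspa1b, Hspa4l, Hspa8, Hsph1, Hsp90aa1, Hspd1, Hspe1, Dnaja1, Dnajb1, Hspb1 and Hspb8). Of these, 6 were lower and 1, Hspb8, was higher, beside 13.2% lower and 18.0% higher over all genes. Their summed level went from 3772 ± 94.5 to 2914 ± 307 CPM (SD, n = 3). Of 4 heat shock factor genes and Hsbp1, which encodes a protein that binds heat shock factor, 0 were called by edgeR, DESeq2 or limma-voom, and 0 had an unadjusted P under 0.05. Hsf1, the main inducer, had 38.9, 34.1 and 37.4 CPM in sham mice and 39.3, 39.8 and 37.4 CPM in BCAS mice (log2FC 0.08 ± 0.08, adjusted P = 0.521). Hsf2 had a log2FC of −0.13 (adjusted P = 0.276). Among the members with a full heat shock element, Dnajb6 and Hspd1 were lower and Hspe1 was not called, and Hsph1, with the element after its start, was lower.

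Beyond the members, 78 partner genes were listed, of which 77 were tested, 17 were lower and 10 higher, beside 13.2% lower and 18.0% higher over all genes. Scaling by library totals gave 13 lower and 12 higher, and without sham mouse 1, 2 or 3, 10, 11 and 7 were lower. The cytosolic chaperonin TRiC, which folds actin and tubulin, was lower in 5 of 8 subunits, led by Cct7 (log2FC −0.35, adjusted P = 0.00792, edgeR). The call of Cct8 was lost on leaving out any sham mouse or BCAS mouse 1 or 3 (adjusted P = 0.0589 to 0.0961), and that of Cct6a without sham mouse 3 (0.0583). Of the ER folding and stress genes, 7 of 22 were higher and 0 lower by edgeR (against 18.0% and 13.2% of all genes), with 0 lower also at an unadjusted P under 0.05 and by DESeq2. Of these, Edem1, which marks misfolded glycoproteins for degradation, had 27.2, 26.9 and 25.2 CPM in sham mice and 63.3, 63.8 and 111 CPM in BCAS mice (log2FC 1.58 ± 0.20, adjusted P = 0.00064). Sdf2l1, a cofactor of Hspa5, had 9.80, 9.64 and 7.78 CPM in sham mice and 20.6, 17.7 and 26.0 CPM in BCAS mice (log2FC 1.24 ± 0.17, adjusted P = 0.000799). Both were DEGs, and Pdia4, a disulfide isomerase, was higher by 0.71 ± 0.16 (adjusted P = 0.0102). Hyou1, the ER relative of HSP110, had a log2FC of −0.21 (adjusted P = 0.0589). Hscb, a mitochondrial J protein of iron-sulfur cluster assembly outside the DNAJ symbols, was higher by 0.70 ± 0.17 (adjusted P = 0.0147), though not without sham mouse 1 or 2.

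The remaining 8 members were too low to test. Dnajb7, Dnajb8, Dnajc5b, Dnajc5g, Dnajc22, Hspb2, Hspb7 and Hspb9 did not exceed 0.462 CPM in any library, and Dnajc5g had 0 counts in all 6, which allows up to 0.0995 CPM. Several of them are known from testis, muscle or heart. None of the tested members passed the filter through counts in a single group. Repeated sequence limits some of the levels: 14 of the 72 members, and 5 of the 19 lower ones, share over 10% of their 150-base windows with other genes, among them Hspa8 (23.0%), Hsp90aa1 (28.5%), Hspd1 (16.1%), Dnajb6 (13.8%) and Dnaja1 (13.4%).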

How the data were processed

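RNA was extracted with TRIzol from the right hippocampus of 3 sham and 3 BCAS mice and sequenced in pairs of reads. The authors trimmed reads with Trim Galore, aligned them to mm10 with HISAT2 and deposited raw counts per gene from featureCounts (version 2.0.3 per the file headers, 1.6.3 per the labels), with mates counted singly, strand ignored, and reads on several genes or places not counted. The deposited counts are whole numbers. Mice carry the replicate numbers of the labels, although columns inside the BCAS tables are headed 2 to 4. Deposited exon lengths were used for levels per kilobase.

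Members and gene lists were chosen with earlier results of these data known. Counts were filtered with filterByExpr (18617 genes), scaled by TMM (factors 0.964 to 1.05) and tested with edgeR 4.0.16 (quasi-likelihood, R 4.3.3), with Benjamini-Hochberg adjustment over all genes tested. P values measure the spread between these mice. Symbols were matched through GENCODE tables of GRCm38 for 54723 genes. The 150-base windows were compared over annotated transcripts. Named members were every DEG, the 10 largest called rises and falls and a list of well-known chaperones. The remaining called members and relatives were described after their values were seen. Those called members were not compared one by one with the alternatives. Alternatives were DESeq2 1.42.0, limma-voom 3.58.1, RLE, library totals, other filters, halved counts, a replicate block and leaving out each mouse. Steps were tested on simulated data.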

Additional observations from a re-analysis of the deposited data

How the results depend on the processing

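Directions held in all but 4 of 736 comparisons of a named gene with an alternative. Of the comparisons, 63 lost a call and 14 gained one. The held directions say little for called members, since all alternatives reuse the same 6 libraries. The groups did not overlap in 19 of 19 lower and 6 of 6 higher members. Leaving out a mouse could therefore hardly turn their direction. The called members Dnajb6, Hspa4, Dnaja3, Dnajc11, Dnajc15, Dnajc18 and Dnajc21 were not among these named genes. Their calls were followed only within counts over all 19 lower members. DESeq2 kept 19 of the 19, and the replicate block kept 11. Leaving out sham mouse 1, 2 or 3 kept 9, 11 and 8, so a single call of these genes may rest on 1 mouse. The 4 reversals were those of Dnajb9 (log2FC −0.02), at 0.05 with library totals, 0.04 and 0.01 without sham mouse 3 or BCAS mouse 3 (range over left-out mice −0.07 to 0.04), and 0.01 in the 4 libraries with high choroid plexus markers. Leaving out a mouse gave 3 to 8 higher members (6 with all mice), 8 to 23 lower members (19), 1 to 3 up-regulated DEGs (4), 0 down-regulated DEGs, 8 to 12 higher partners (10) and 7 to 21 lower partners (17). DESeq2 gave 23 lower and 5 higher members. Library totals moved the summed log2 ratio of all members from −0.28 to −0.20, DNAJB from −0.20 to −0.13, DNAJC from −0.17 to −0.09, HSP60/HSP10 from −0.26 to −0.18 and HSP70 from −0.28 to −0.20. The median of all genes moved from 0.018 to 0.09. Mice with the same label number did not deviate together from their group means (correlations 0.036, −0.314 and −0.158). A pairing by the numbers that head the BCAS columns, 2 to 4, was not tested, and the replicate block used the label numbers. With the replicate block, 11 members were lower, 4 higher and 2 up-regulated DEGs. With counts halved, Hspb3 and Dnajb13, both near 1 CPM, kept their calls.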
